A study of Mus musculus with 8 samples.

Results

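MHC class II antigen presentation was followed through 7 genes of the mouse left ventricle, out of 49671 genes in the table. They are H2-Ab1, H2-Aa and H2-Eb1, which encode chains of the peptide-binding class II molecules, H2-DMa and H2-DMb1, which encode the peptide editor H2-DM, Cd74, which encodes the invariant chain, and Ciita, which encodes the class II transactivator. The genes were taken by symbol. H2-Ab1 was selected on its measured values, which were lower under the amino acid diet in sham-operated mice, and the question asked was whether the other 6 genes share its pattern over the 4 groups. H2-Ab1 was thus chosen by the values of the 2 sham groups, and these are given below as a description with no test.

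The 8 libraries hold polyadenylated RNA of the left ventricle from C57BL/6N mice, all of them male and 8 weeks old at the start by the series' description. The sham SFA group ate a low fat diet named SFA and had a sham operation. The sham SFA-EAA group had the same operation on a diet in which 93.5% of the casein was replaced with free essential amino acids. The TAC SFA and TAC SFA-EAA groups ate these diets and had transverse aortic constriction (TAC), a surgical narrowing of the aorta that raises the pressure load on the left ventricle. All tissue was taken 4 weeks after the operation. Each group had 2 libraries, and the labels do not tie them to separate animals. The p-values therefore reflect only how these samples spread, which may be technical.

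Class II molecules present peptides from proteins taken up by the cell to CD4+ T cells. The alpha and beta chains assemble in the endoplasmic reticulum with the invariant chain, which blocks the groove and steers the complex to endosomes. Cathepsins degrade the invariant chain there, and H2-DM exchanges its remaining fragment for other peptides. In the heart these genes are known chiefly from resident and recruited macrophages, dendritic cells and B cells. Transcription of the other genes depends on Ciita, which binds no DNA itself and is recruited by factors sitting on the X and Y boxes of class II promoters. H2-Aa and H2-Ab1 encode the alpha and beta chains of I-A, and H2-Eb1 encodes the beta chain of I-E. C57BL/6 mice carry a deletion in the I-E alpha chain gene, so their H2-Eb1 transcript does not lead to I-E at the cell surface.

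The promoters are shown for the X and Y boxes, through which Ciita is recruited to class II promoters. The 150 bases before the start were read from RefSeq for GRCm38.p6, in which 4 of the 7 genes were matched (H2-Aa, H2-Eb1, H2-DMa and H2-DMb1), while H2-Ab1, Cd74 and Ciita were not. Each line below is written 5′ to 3′ on the gene's own strand, with capitals for the X box core (AACNGATG) and the Y box core (GATTGG, or CCAATC on the opposite strand).
H2-Aa, chr17:34287824-34287973, minus strand: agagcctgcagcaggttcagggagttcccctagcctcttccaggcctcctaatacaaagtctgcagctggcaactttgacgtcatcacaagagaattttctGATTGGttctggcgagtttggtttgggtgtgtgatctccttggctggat
H2-Eb1, chr17:34305717-34305866, plus strand: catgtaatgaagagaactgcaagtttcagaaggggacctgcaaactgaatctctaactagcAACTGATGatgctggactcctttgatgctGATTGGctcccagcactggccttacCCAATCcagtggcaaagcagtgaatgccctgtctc
H2-DMb1, chr17:34153041-34153190, plus strand: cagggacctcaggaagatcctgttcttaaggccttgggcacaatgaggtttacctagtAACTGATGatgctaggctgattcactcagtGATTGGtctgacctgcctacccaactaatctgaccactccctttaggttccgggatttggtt

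The Y box core began 49 bases before the start in H2-Aa, 60 bases before it in H2-Eb1 and 62 bases before it in H2-DMb1. The X box core began 89 bases before the start in H2-Eb1 and 92 bases before it in H2-DMb1, so the 2 cores began 29 and 30 bases apart. These distances are from the RefSeq start. The H2-DMb1 measured here begins at 34153072, within its window, so both of its cores lie past that position. Searched on both strands, the X box core occurred in 1.14% and the Y box core in 10.9% of 32851 promoter windows of this length. An X box core followed by a Y box core on the forward strand, with starts 20 to 40 bases apart, occurred in 5 windows (0.0152%), those of H2-DMb1, H2-Eb1, H2-DMb2, H2-Eb2 and BC051142, all on chromosome 17. The letters of both cores were chosen after candidate matches in these promoters had been seen, so these shares describe the windows and test nothing. In H2-Aa only the Y box core was found. The windows of H2-DMa, chr17:34122682-34122831 and chr17:34125368-34125517, held neither core. They precede other RefSeq starts, and do not cover the bases before 34135182, where the H2-DMa measured here begins. These absences say only that these letters are not in the windows read.

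The left ventricle libraries had deposited values that summed to 5136441 to 6298743, and cardiac muscle genes such as Myh6, the alpha myosin heavy chain, and Actc1, cardiac alpha actin, had at least 51541 and 52398 normalized counts in every library. The libraries differed in base composition. The deviation of a gene from its mean rose with the gene's GC content in both sham SFA libraries, both TAC SFA libraries and TAC SFA-EAA replicate 1 (Spearman rho 0.31 to 0.49 across 11387 genes, which are not independent replicates). It fell with GC content in sham SFA-EAA replicates 1 and 2 (rho -0.59 and -0.40) and in replicate 2 of TAC SFA-EAA (rho -0.70). The class II genes have transcripts of 51.4% (H2-Aa) to 57.5% GC (H2-Ab1). Values after a correction for this trend therefore stand beside the results, and rho was between -0.03 and 0.03 after it.

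All 7 genes had lower group means in sham SFA-EAA than in sham SFA. H2-Ab1 (ENSMUSG00000073421, chr17:34263209-34269418, plus strand, GRCm38) had normalized read counts of 255.5 and 191.7 in sham SFA against 36.1 and 60.3 in sham SFA-EAA. After TAC it had 217.5 and 157.0 under SFA, and 196.8 and 98.1 under SFA-EAA. Both sham SFA-EAA libraries lay below the other 6, while the other 3 groups overlapped one another. H2-Ab1 was thus 4.64-fold higher in sham SFA (223.6 ± 45.1, SD, n = 2) than in sham SFA-EAA (48.2 ± 17.1, SD, n = 2), and 3.41-fold after GC correction.

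H2-Aa (ENSMUSG00000036594, chr17:34282744-34287827, minus strand), the partner of H2-Ab1 in I-A, had 405.9 and 333.9 in sham SFA and 101.4 and 191.2 in sham SFA-EAA. After TAC its values were 352.3 and 225.6 under SFA, and 266.8 and 279.4 under SFA-EAA. Again the sham SFA-EAA libraries were the lowest of all 8, and the ratio of sham SFA to sham SFA-EAA means was 2.53 (2.46 after GC correction). H2-Eb1 (ENSMUSG00000060586, chr17:34305877-34316199, plus strand) had 313.2 and 222.8 in sham SFA, 74.7 and 105.0 in sham SFA-EAA, 316.3 and 203.0 in TAC SFA, and 237.9 and 175.5 in TAC SFA-EAA. Its ratio between the sham groups was 2.98, or 2.48 after GC correction, and the other 3 groups overlapped.

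Cd74 (ENSMUSG00000024610, chr18:60803848-60812646, plus strand) encodes the invariant chain. It had 775.0 and 639.4 in sham SFA, 163.0 and 293.6 in sham SFA-EAA, 765.1 and 527.8 in TAC SFA, and 559.0 and 378.7 in TAC SFA-EAA. The sham SFA-EAA libraries were the lowest 2 of the 8. The sham SFA mean was 3.10-fold that of sham SFA-EAA, and 2.51-fold after GC correction.

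The editor genes were expressed at a lower level. H2-DMa (ENSMUSG00000037649, chr17:34135182-34139101, plus strand) had 27.1 and 17.4 in sham SFA, 6.12 and 8.15 in sham SFA-EAA, 40.1 and 18.3 in TAC SFA, and 19.4 and 12.1 in TAC SFA-EAA. Both sham SFA-EAA libraries were below all others, with a ratio of 3.11 between the sham groups (2.52 after GC correction). H2-DMb1 (ENSMUSG00000079547, chr17:34153072-34160230, plus strand), its partner chain, was the exception. It had 13.9 and 10.04 in sham SFA against 2.85 and 11.6 in sham SFA-EAA, 18.1 and 10.7 in TAC SFA, and 10.2 and 6.23 in TAC SFA-EAA. Its lowest value was in sham SFA-EAA replicate 1, but replicate 2 of that group lay between the 2 sham SFA libraries. Without sham SFA-EAA replicate 1, the log2 difference of H2-DMb1 between the sham groups was -0.02, against -0.88 with it.

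Ciita (ENSMUSG00000022504, chr16:10488178-10527564, plus strand), the regulator, had the lowest values of the 7 genes. They were 8.0 and 3.64 in sham SFA, 1.22 and 1.19 in sham SFA-EAA, 4.71 and 10.6 in TAC SFA, and 7.19 and 7.26 in TAC SFA-EAA. Both sham SFA-EAA libraries were again the lowest, but values near 1 rest on very few reads and carry the authors' adjustment of low values, so no ratio is given. Dexi overlaps Ciita on the opposite strand with 68.9 to 169.9, and Mir5107, within Cd74, reached at most 1.02. The kit keeps strand, but the sources used here do not give whether the counting used it. Reads of Dexi and Ciita could therefore have been mixed.

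**Figure D1:**
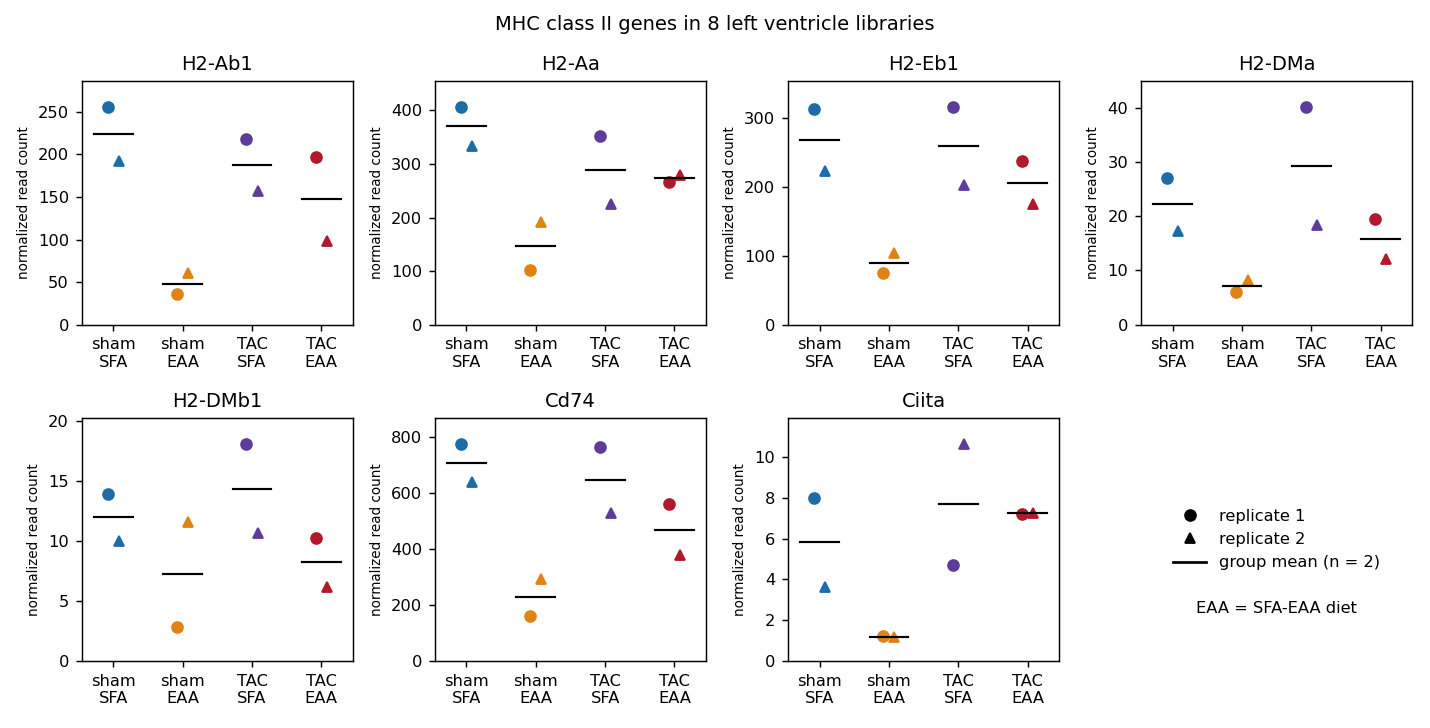
Normalized read counts (linear vertical axes from 0, a different scale per gene) of the 7 class II genes in the 8 left ventricle libraries. Circles and triangles are replicates 1 and 2, and horizontal lines are means of 2 libraries. The sham SFA-EAA points are the lowest 2 in every panel except H2-DMb1, where replicate 2 has 11.6.

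Compared per kilobase of transcript, the mean level over the 8 libraries was 363.6 normalized counts for Cd74, 174.0 for H2-Eb1, 143.8 for H2-Aa and 92.6 for H2-Ab1. H2-DMa had 11.3, H2-DMb1 7.04 and Ciita 1.04 on this scale. The order of the group means was sham SFA, TAC SFA, TAC SFA-EAA and sham SFA-EAA, from high to low, for H2-Ab1, H2-Aa, H2-Eb1 and Cd74. In those 4 genes neighbouring groups overlapped except at the last step, between TAC SFA-EAA and sham SFA-EAA. H2-DMa and H2-DMb1 had TAC SFA first and sham SFA second, with sham SFA-EAA last in both, apart from its neighbour in H2-DMa and overlapping it in H2-DMb1. Ciita had TAC SFA, TAC SFA-EAA, sham SFA and sham SFA-EAA in that order, with a gap only at the last step. Sham SFA-EAA replicate 1 was the lowest library for 6 of the 7 genes, and sham SFA replicate 1 was among the highest 2 for all 7.

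In sham mice, the log2 difference of SFA-EAA minus SFA, on the log2(value + 1) scale, was -2.22 for H2-Ab1, -1.68 for Cd74 and -1.57 for H2-Eb1. It was -1.55 for Ciita, -1.49 for H2-DMa, -1.40 for H2-Aa and -0.88 for H2-DMb1. The median of the 7 was -1.55, against -0.01 over the 16432 genes tested, and -1.30 after GC correction. As deposited it is the value of Ciita, which rests on very few reads, and after correction that of H2-Eb1. All 7 differences were below 0, as were 50.8% of all genes tested. In 6 of the 7 genes the sham SFA-EAA libraries lay wholly below the sham SFA libraries, as they did in 27.6% of all genes. At an adjusted p under 0.05 limma-trend called 0 of the 16432 genes in this contrast (0%, with 2437 at an unadjusted p under 0.05), and 2 after GC correction (0.0122%). Leaving out any 1 of the 8 libraries left all 7 differences below 0. The genes were proposed with this contrast known, so nothing is read from these counts.

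The diet comparison after TAC compares no library of that contrast, and is the 1 diet test run on all 7 genes. Its spread was estimated over all 8 libraries, the sham libraries included, so it is not fully independent of them. None of the 7 genes passed this test. H2-Ab1, at 187.3 ± 42.8 under SFA and 147.4 ± 69.8 under SFA-EAA (SD, n = 2 each), differed by -0.41 on the log2 scale, with a 95% interval from -1.21 to 0.39 and a limma adjusted p of 0.621. Cd74, at 646.4 ± 167.8 and 468.9 ± 127.5 (SD, n = 2 each), differed by -0.46, with an interval from -1.13 to 0.21 (limma adjusted p = 0.486). Both intervals include 0, and the libraries of the 2 diets overlapped in both genes.

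H2-Aa differed by -0.05 after TAC (interval -0.71 to 0.62, limma adjusted p = 0.962) and H2-Eb1 by -0.31 (interval -0.93 to 0.31, limma adjusted p = 0.629). The chains of I-A and I-E thus had overlapping libraries on both diets after TAC. The editor genes had the 2 lowest estimates, -0.78 for H2-DMa (interval -1.82 to 0.25, limma adjusted p = 0.445) and -0.73 for H2-DMb1 (interval -2.07 to 0.61, limma adjusted p = 0.597). Ciita differed by 0.01, with an interval from -1.18 to 1.2 (limma adjusted p = 0.996). All 5 intervals include 0.

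Of the 7 estimates after TAC, 6 were below 0, as were 52.6% of all genes, and the median was -0.41 against -0.03 over all genes. The libraries did not overlap in 1 of the 7, H2-DMb1, which was lower under SFA-EAA, as were 21.1% of all genes (a further 21.7% were wholly higher). Limma-trend called 8 of 16432 genes here (0.0487%), 2 higher (0.0122%) and 6 lower (0.0365%), and 333 after GC correction (2.03%). After that correction the median of the 7 was -0.08, and H2-Ab1 differed by -0.02 where the deposited values gave -0.41. The difference between the diet effects in sham and after TAC was not tested, because the sham contrast chose H2-Ab1.

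TAC under the SFA diet was compared next, asking whether pressure overload changed class II transcripts on the control diet. The 6 genes other than H2-Ab1 did not pass the test. Log2 differences of TAC SFA minus sham SFA were -0.38 for H2-Aa, -0.06 for H2-Eb1 and -0.15 for Cd74, with limma adjusted p of 0.672, 0.971 and 0.900. They were 0.31 for H2-DMa, 0.22 for H2-DMb1 and 0.33 for Ciita, with limma adjusted p of 0.848, 0.931 and 0.860. H2-Ab1, which is described without a test because its sham libraries chose it, differed by -0.26. The same sham SFA libraries enter the values of the other 6 genes, whose p-values are therefore descriptive. Each of the 7 genes had overlapping libraries, while 24.3% of all genes were wholly higher and 23.1% wholly lower after TAC. Of the 7 estimates, 4 were below 0, as were 47.7% of all genes. In the same contrast limma-trend called 205 genes (1.25%), 137 higher (0.834%) and 68 lower (0.414%), and 876 after GC correction (5.33%).

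TAC under the SFA-EAA diet had positive estimates for all 7 genes, where 49.8% of all genes were below 0, but none of the 6 tested passed after adjustment. The contrast uses the sham SFA-EAA libraries that chose H2-Ab1, so its intervals and p-values are descriptive. H2-Eb1, at 89.9 ± 21.4 in sham and 206.7 ± 44.2 in TAC (SD, n = 2 each), had a log2 difference of 1.2, with an interval from 0.58 to 1.82 and a limma adjusted p of 0.304. Cd74, at 228.3 ± 92.3 in sham and 468.9 ± 127.5 in TAC (SD, n = 2 each), had a difference of 1.07 (interval 0.40 to 1.74, limma adjusted p = 0.401). H2-Aa had 0.97 (interval 0.30 to 1.63, limma adjusted p = 0.434). In these 3 genes TAC SFA-EAA lay wholly above sham SFA-EAA, as it did in 18.5% of all genes.

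H2-DMa had a difference of 1.02 (interval -0.02 to 2.06, limma adjusted p = 0.587) and H2-DMb1 of 0.37 (interval -0.97 to 1.71, limma adjusted p = 0.907). Without sham SFA-EAA replicate 1 the estimate of H2-DMb1 was -0.49. Ciita had 1.90 (interval 0.71 to 3.09, limma adjusted p = 0.401), and 2.36 with a pseudocount of 0.25, since its sham values are near 1. H2-Ab1, described without a test, had 1.55. The unadjusted limma p was under 0.05 in 4 of the 6 tested genes (H2-Aa, H2-Eb1, Cd74 and Ciita) and in 1408 of the 16432 genes. Limma-trend called 2 of the 16432 (0.0122%). Because the sham SFA-EAA libraries chose H2-Ab1, nothing is read from the intervals, the p-values or the count of 4.

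The median of the 7 differences under SFA-EAA was 1.07, against 3.8e-05 over all genes, and 1.00 after GC correction. In 6 of the 7 genes, all but H2-DMb1, TAC SFA-EAA lay wholly above sham SFA-EAA, as it did in 18.5% of all genes. With GC correction the limma adjusted p was 0.0702 for H2-Eb1, 0.123 for Cd74 and 0.197 for H2-Aa, still above the threshold (36 genes called, 0.219%). This contrast shares the sham SFA-EAA libraries with the one that chose H2-Ab1, so the low sham SFA-EAA values enter both.

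**Figure D2:**
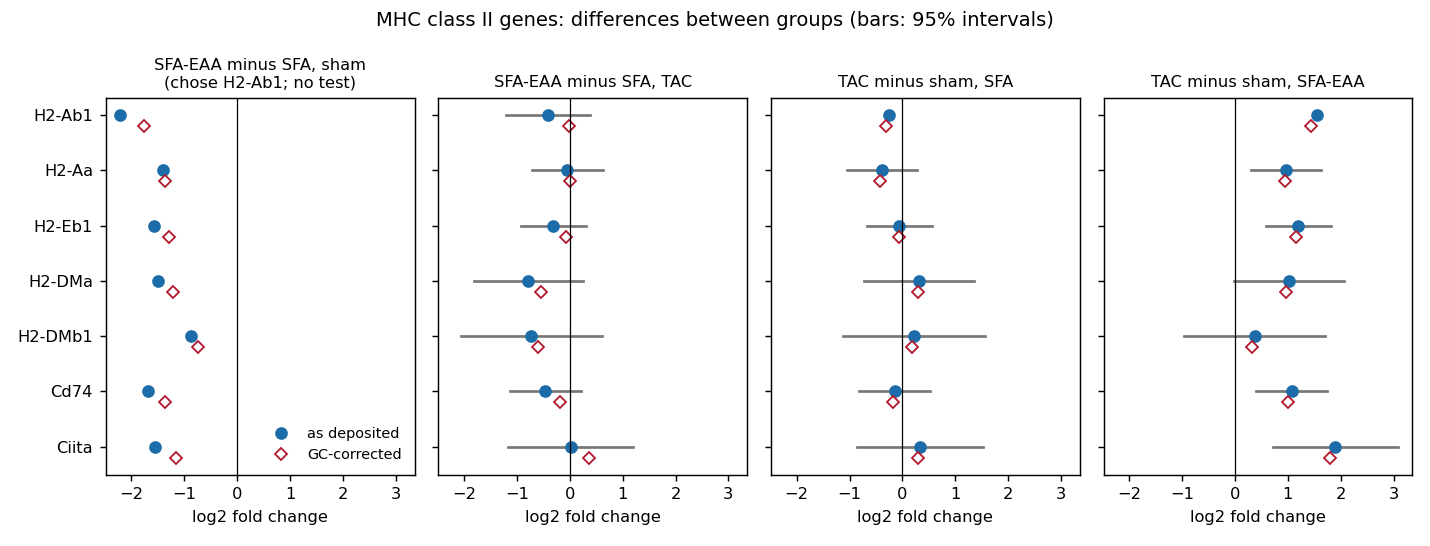
Log2 differences between groups, on the log2(value + 1) scale, for the 7 class II genes in 4 comparisons, as deposited (filled circles, with 95% intervals where a test was run) and after GC correction (open diamonds). The circles lie below 0 for all 7 genes in sham mice (-2.22 to -0.88), and above 0 for all 7 in TAC against sham under SFA-EAA (0.37 to 1.90).

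The 2 chains of I-A did not keep 1 ratio. H2-Aa was 1.59 and 1.74 times H2-Ab1 in sham SFA, 2.81 and 3.17 times in sham SFA-EAA, 1.62 and 1.44 times in TAC SFA, and 1.36 and 2.85 times in TAC SFA-EAA. The 3 libraries with a ratio above 2 were the 3 whose values fell with GC content, and H2-Ab1 has the higher GC content of the pair. After GC correction the ratio was 2.27 and 2.82 in sham SFA-EAA and 2.10 in TAC SFA-EAA replicate 2, against 1.51 to 2.0 in the other 5 libraries, so the gap narrowed. As deposited, H2-Eb1 over H2-Ab1 showed the same split, with 1.74 to 2.07 in these 3 libraries and 1.16 to 1.45 in the others. After GC correction H2-Eb1 and H2-Ab1 had 212.9 and 135.5 in TAC SFA-EAA replicate 2. They had 299.1 and 191.4 in TAC SFA replicate 1, nearly the same proportion. In sham SFA-EAA they had 85.9 and 46.2 in replicate 1, and 112.7 and 69.1 in replicate 2. Cd74 kept closer to the chains. Per kilobase it was 0.75 to 0.97 times the sum of H2-Aa, H2-Ab1 and H2-Eb1 in all 8 libraries, with 0.83 and 0.92 in sham SFA-EAA.

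**Figure D3:**
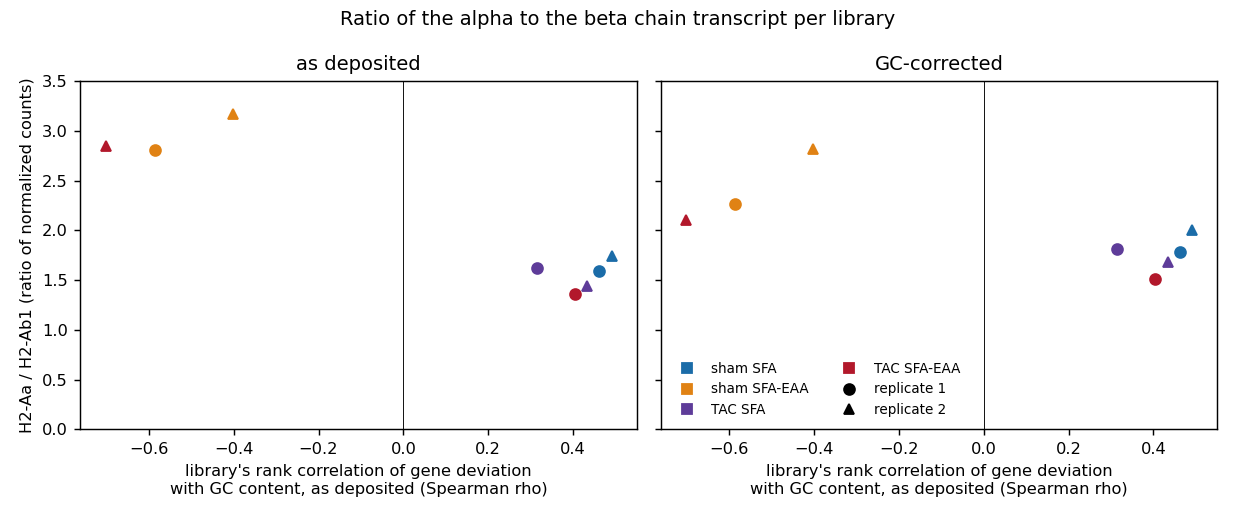
Ratio of H2-Aa to H2-Ab1 normalized counts in each library, as deposited and after GC correction, against the library's rank correlation of deviation with GC content. The 3 libraries with negative correlations have deposited ratios of 2.81, 3.17 and 2.85, and the other 5 have 1.36 to 1.74.

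Markers of macrophages, the most abundant class II-expressing leukocytes of the heart, were summed to see what moved with the class II genes. The sum of 6 class II genes (all but Ciita) was 1791 and 1415 in sham SFA, 384.2 and 669.8 in sham SFA-EAA, 1710 and 1142 in TAC SFA, and 1290 and 950.1 in TAC SFA-EAA. The sum of 10 macrophage markers was 1637 and 1256 in sham SFA, 1110 and 1199 in sham SFA-EAA, 2100 and 1917 in TAC SFA, and 1726 and 2006 in TAC SFA-EAA. As deposited, the sham SFA-EAA libraries had the lowest 2 values in both sums. After GC correction the macrophage sums of the sham groups overlapped, at 1544 and 1193 under SFA against 1203 and 1262 under SFA-EAA. Without Lyz2, the marker with the largest values, the corrected macrophage sums were lower under SFA-EAA and did not overlap. The corrected class II sums (1655 and 1321 against 439.3 and 719.4) did not overlap. Nor did the corrected sums of 6 pan-leukocyte genes, at 248.4 and 191.7 under SFA against 125.1 and 165.1 under SFA-EAA. The median sham diet difference of the 10 macrophage markers was -0.52, and -0.31 after GC correction. In bulk tissue, fewer cells of a type and less RNA per cell cannot be told apart.

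Class II over macrophage transcripts was 1.09 and 1.13 in sham SFA, 0.346 and 0.559 in sham SFA-EAA, 0.814 and 0.596 in TAC SFA, and 0.748 and 0.474 in TAC SFA-EAA. Sham SFA was the highest group in this ratio, TAC SFA lay above sham SFA-EAA, and TAC SFA-EAA overlapped it. Without Lyz2, the lysozyme gene that made up the largest single value, the ratio was 1.70 and 1.68 in sham SFA, 0.671 and 1.02 in sham SFA-EAA, 1.21 and 0.860 in TAC SFA, and 1.19 and 0.991 in TAC SFA-EAA. Over 6 pan-leukocyte genes it was 6.93 and 7.12 in sham SFA, 3.20 and 4.14 in sham SFA-EAA, 5.16 and 3.40 in TAC SFA, and 4.64 and 4.00 in TAC SFA-EAA. In each of the 3 ratios the sham SFA libraries were the highest 2 of the 8, also after GC correction, when class II over macrophage transcripts was 1.07 and 1.11 in sham SFA and 0.365 and 0.570 in sham SFA-EAA. The part of leukocyte content in the class II differences was not tested.

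**Figure D4:**
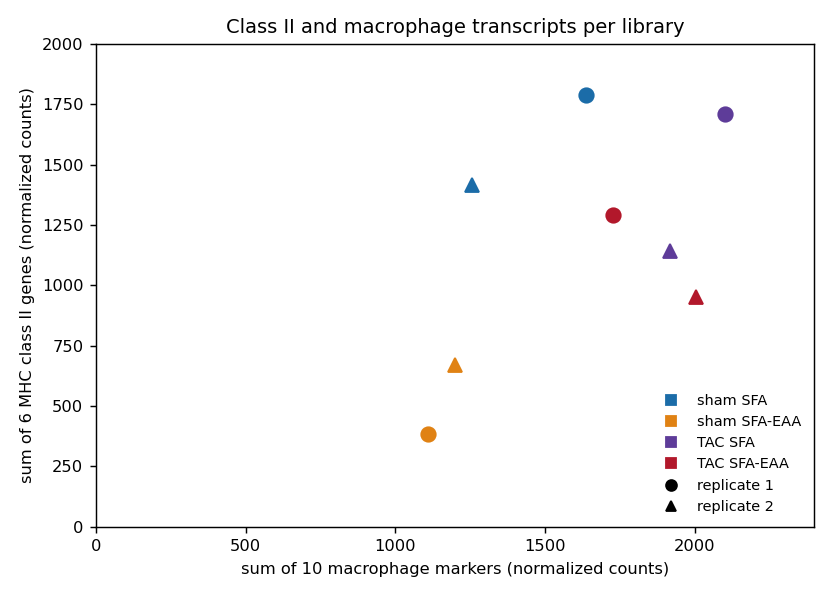
Sum of 6 class II genes against the sum of 10 macrophage markers, both in normalized counts, 1 point per library. Values are as deposited, and on this scale the sham SFA-EAA libraries are lowest on both axes (class II 384.2 and 669.8, macrophage 1110 and 1199). After GC correction the macrophage sums of the sham groups overlap (1203 and 1262 against 1544 and 1193 in sham SFA), but without Lyz2 they do not. Sham SFA replicate 1 has more class II transcript (1791) than any TAC library.

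Among single macrophage markers, Lyz2 had 582.0 and 412.5 in sham SFA and 537.3 and 543.4 in sham SFA-EAA, while C1qb, a complement subunit made by macrophages, had 234.2 and 192.5 against 134.1 and 143.4. After GC correction the C1qb libraries overlapped, at 207.6 and 169.2 against 169.5 and 163.5, and its log2 difference went from -0.61 to -0.17. All 10 macrophage markers had positive estimates in TAC against sham under SFA-EAA, with a median log2 difference of 0.76, and 9 of 10 did so under SFA, with a median of 0.55, but none passed the test. The 7 markers of Lyve1-type resident macrophages, a subset known for low class II, had a median of 0.17 in the sham diet contrast, with 2 of 7 below 0. For the 6 pan-leukocyte genes that median was -0.67, with 5 below 0, and Laptm5, a lysosomal protein of blood cells, had 128.8 and 75.8 against 39.2 and 56.3.

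The listed markers of other antigen-presenting cells had lower sums than the macrophage markers. The lists hold different genes, so their sums do not compare cell numbers. Which cells carried the class II transcripts was not tested. The 9 B cell markers summed to 32.8 to 54.0 per library, most of it Ighm, the immunoglobulin mu heavy chain (17.8 to 40.9). Of the dendritic cell markers, whose sum was 97.1 to 154.2, most came from Zbtb46 (62.2 to 94.1), which endothelial cells also express. Clec9a and Xcr1, which define cross-presenting dendritic cells, did not exceed 1.02 and 1.92. Irf8, a transcription factor of dendritic cells and macrophages, had 37.2 and 25.5 in sham SFA, 14.5 and 9.69 in sham SFA-EAA, 36.2 and 31.4 in TAC SFA, and 34.9 and 28.9 in TAC SFA-EAA, so its sham SFA-EAA libraries were the lowest 2. Its log2 difference between the sham groups was -1.31, and -0.76 after GC correction. The dendritic cell list had a median of -0.60 in this contrast (-0.55 after GC correction), with 8 of 10 tested genes below 0. As deposited, the median is the midpoint of Xcr1 (0 to 1.92) and Batf3 (0 to 4.63). Apart from Zbtb46 and Irf8, no tested gene of the list had a mean above 3.17, so the median rests on few reads. Zbtb46 (0.35, and 0.44 after GC correction) and Itgax (0.22, and 0.20 after it) were above 0. T cell markers summed to 8.27 to 21.1, with Cd4 at 2.46 to 7.14. The 7 monocyte markers had medians of 0.69 and 1.28 in TAC against sham under SFA and SFA-EAA. Both medians are the value of Chil3, which lay between 0 and 5.10 and rests on few reads. The 6 endothelial markers had a median of -0.36 in the sham diet contrast (-0.10 after GC correction). As deposited, none of these lists had a gene that passed in any of the 4 comparisons. After GC correction the monocyte marker Fn1, the fibronectin gene, which fibroblasts also express, was higher in TAC under SFA (log2 difference 1.30, limma adjusted p = 0.0116) and lower under SFA-EAA after TAC (-1.15, limma adjusted p = 0.0414).

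Genes around the class II pathway had medians nearer 0 in the sham diet contrast. The 7 genes for factors that bind the X and Y boxes, Nfyc (113.7 to 181.6) and Creb1 (102.5 to 153.7) among them, had a median log2 difference of 0.13 (0.24 after GC correction), with 2 of 7 below 0. The interferon-gamma pathway, the usual inducer of Ciita, had a median of -0.06 over 6 tested genes, and the Ifng ligand itself did not exceed 0.015. The 8 endosomal genes had a median of 0.01, with the cathepsin genes Ctsd at 3566 to 4156 and Ctsb at 2562 to 3017 over all libraries. Costimulation and class II turnover had a median of -0.10 over 8 tested genes (-0.25 after GC correction), of which March8, a ubiquitin ligase of the family that turns class II over, had 251.4 to 317.2. No gene of these 4 lists passed in any comparison, and all were read beside a median of -0.01 over all genes.

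Further class II genes were close to absent. H2-Eb2 was listed at 0 in all 8 libraries, H2-DMb2 lay between 0 and 4.53, H2-Oa between 0 and 2.71, and H2-Ob, a chain of the H2-DM inhibitor H2-O, between 0.759 and 7.48. The class I pathway, which presents peptides made inside the cell and shares interferon control with class II, had 11 of 12 genes below 0 in the sham diet contrast. Its median was -0.53, and -0.28 after GC correction. Its most abundant genes, Calr, a chaperone, and B2m, the light chain of class I, had -0.24 and -0.08 as deposited, and -0.24 and -0.42 after GC correction. The heavy chain genes H2-D1 and H2-K1 had -0.67 and -0.75, and -0.55 and -0.44 after it. After TAC the diet median of the list was -0.25, with 9 of 12 below 0, and no gene passed.

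Psmb9, Tap1, Psmb8 and Tap2, 4 class I genes, lie between the class II genes on chromosome 17. The span from H2-DMa to H2-Eb1 (chr17:34135182-34316199, 181.0 kb) held 11 tested genes, 5 of them class II members described here and 4 others with a mean of at least 10. Tap1, a subunit of the peptide transporter, had 49.6 and 61.5 in sham SFA against 21.4 and 26.4 in sham SFA-EAA. Its partner Tap2 had 158.4 and 163.4 against 66.9 and 82.4. In both genes sham SFA-EAA lay wholly below sham SFA, as it did in 27.6% of all genes. The log2 differences were -1.18 for Tap1, -1.10 for Tap2, -0.54 for Psmb9 and -0.46 for Psmb8, the last 2 being immunoproteasome subunits. After GC correction they were -0.88, -0.61, -0.28 and -0.29, beside -0.74 (H2-DMb1) to -1.77 (H2-Ab1) for the 5 members in the span. Cd74 and Ciita, on chromosomes 18 and 16, also had lower means in sham SFA-EAA.

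Over the 8 libraries, the 5 genes with values most like those of H2-Ab1 among 9948 genes with a mean of at least 20 included Cd74 (Pearson r of log2 values 0.987), H2-Eb1 (0.983), Rgl3 (0.974) and the class I gene H2-Q4 (0.968). The libraries differ in the direction of their GC trend, and after correction for it r was 0.785 for Rgl3 and 0.916 for H2-Q4. H2-Aa stood at rank 68 with r of 0.914, and at 0.949 after GC correction. Among all pairs of the 7 genes r ran from 0.40, between H2-DMb1 and Ciita, to 0.987. After GC correction it ran from 0.20, for the same pair, to 0.980. Ciita had r of 0.40 to 0.77 with the other members, and 0.20 to 0.68 after GC correction. These correlations across 8 libraries of 4 groups are descriptions of a pattern that H2-Ab1 was chosen for.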

How the data were processed

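Reads were aligned with STAR 2.5 to GRCm38 and normalized with edgeR by the authors, per the submitters' processing notes. How reads were counted (tool, annotation release, strand) is not given in the sources used here. The deposited table holds a normalized signal per gene and library, called normalized read counts in the text, which are not whole counts, so no count model was run. Low values carry an adjustment: both sham SFA-EAA libraries have 17427 genes above 0 and both TAC SFA-EAA libraries 17821, with lowest positive values of 0.0021 to 0.017, so a value well under 1 is not a number of reads. Further libraries that are not analysed here may have entered that adjustment.

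Limma-trend (limma 3.58.1, R 4.3.3) was fitted to log2(value + 1) of the 16432 genes that reached a value of 1 in 2 or more libraries, all 7 class II genes among them, with 4 group means and 1 shared spread. The tests are two-sided, and p-values were adjusted over all genes by Benjamini-Hochberg with a threshold of 0.05. This scale understates changes of low genes. For GC correction, a loess curve (span 0.3) of deviations on transcript GC content was subtracted per library, fitted to genes with a mean of at least 10. The script was checked on simulated data. Tables and plots used numpy 2.4.6, pandas 2.3.3 and matplotlib 3.10.9 under Python 3.11.15.

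The members and lists were chosen with earlier results of these data known. Named genes are all members, called genes or the 2 most abundant of each list, and the 5 most like H2-Ab1, of which 1 is not reported here. Other genes named (list-defining markers, Irf8, H2-D1, H2-K1, the further class II genes, genes within or overlapping the members' loci) were chosen after their values were seen.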

Additional observations from a re-analysis of the deposited data

How the results depend on the processing

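Other settings were a pseudocount of 0.25, no filter, a minimum value of 5, quantile and median-of-ratios scaling, a replicate block, library weights, GC correction, a fit to only the 4 libraries compared, and the omission of 1 library at a time (a lone library left in a group is assumed to vary like the others). Of the tested members, 0 were called under any of them in the 3 tested comparisons.

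Counts of called genes over the whole table moved more. For the diet in sham (0 called) they were 591 with library weights, 2 with GC correction and 0 to 1167 without 1 library (1167 and 1163 without TAC SFA-EAA replicate 1 or 2, 0 without any other). For the diet after TAC (8) they were 0 with a pseudocount of 0.25, without a filter, with the replicate block, with weights or in the 4-library fit, 81 with a minimum of 5, 15 with median-of-ratios scaling, 333 with GC correction (200 higher, 133 lower) and 0 to 2128 without 1 library (2128 and 51 without TAC SFA-EAA replicate 1 or 2, at most 5 otherwise). For TAC under SFA (205) they were 322 with a minimum of 5, 96 with the replicate block, 728 with weights, 876 with GC correction (405 higher, 471 lower), 0 in the 4-library fit and 0 to 846 without 1 library (846 and 827 without TAC SFA-EAA replicate 1 or 2, 103 and 101 without sham SFA-EAA replicate 1 or 2, 51 and 3 without TAC SFA replicate 1 or 2, 12 and 0 without sham SFA replicate 1 or 2). For TAC under SFA-EAA (2) they were 0 with a pseudocount of 0.25, without a filter, with quantile scaling, the replicate block, weights or the 4-library fit, 5 with a minimum of 5, 36 with GC correction (29 higher, 7 lower) and 0 to 269 without 1 library (26 and 269 without TAC SFA-EAA replicate 1 or 2, 0 without any other). The cause was not tested.

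Of the member values, 462 were labelled unchanged, 13 reversed and 1 moved. For tested values, unchanged means the same direction and the same call at the threshold, whatever the size of the shift. For values without a test, it means a shift smaller than the spread within groups. The sham diet difference of H2-DMb1 is thus among the unchanged, although it was -0.02 without sham SFA-EAA replicate 1. For the diet after TAC, H2-Aa was 0.0099 with GC correction. Without TAC SFA replicate 1, H2-Aa was 0.27 (range over the 8 omissions -0.37 to 0.27), H2-Eb1 0.0093 (-0.63 to 0.0093) and Ciita -0.50 (-0.50 to 0.53), and without TAC SFA-EAA replicate 2, H2-Ab1 was 0.090 (-0.91 to 0.090). For TAC under SFA, H2-Eb1 was 0.18 without sham SFA replicate 1, and Ciita was -0.14 when sham SFA replicate 2 was left out. Without TAC SFA replicate 2, H2-Eb1 was 0.26 (-0.38 to 0.26), Ciita -0.18 (-0.18 to 0.85) and Cd74 0.12 (-0.41 to 0.12), and without TAC SFA replicate 1 H2-DMa was -0.23 (-0.23 to 0.86) and H2-DMb1 -0.14 (-0.14 to 0.57). For TAC under SFA-EAA, H2-DMb1 was -0.49 without sham SFA-EAA replicate 1 (-0.49 to 1.23). Replicate numbers did not pair the libraries: deviations of same-numbered libraries correlated at -0.22 to 0.04. Values near 1 rest on few reads, which limits Ciita.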
